A study of Caenorhabditis elegans with 2 samples.

Results

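The regions described here are the autosomal ZAG-1 ChIP-seq regions that lie at divergent promoters, where a gene on the plus strand and a gene on the minus strand start close to each other and are read away from each other. A region of the list called on both replicates together, the joint list, was taken when its summit lay from 1000 bp upstream to 100 bp downstream of protein-coding transcript starts of genes on opposite strands. This gave 423 of the 8053 autosomal regions of the joint list (5.25%, exact 95% interval 4.78 to 5.76) and of 10005 regions in all. Both samples are ChIP-seq libraries of whole Caenorhabditis elegans larvae of the third stage (L3), of pooled males and females, in strain OP83. That strain carries the unc-119(ed3) mutation and the transgene wgIs83, which supplies eGFP-tagged zag-1. The samples are 2 biological replicates of 1 group, so no condition was compared. Neither the promoter that drives the transgene nor the cells in which it is active is given in the labels, and the endogenous zag-1 gene is not stated to be removed.

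ZAG-1 belongs to the ZEB proteins, which carry zinc fingers and a homeodomain, and is known as a repressor of transcription that acts while neurons differentiate. In its genome many genes sit back to back, and the sequence between a pair of opposed starts can serve the promoters of both. Vertebrate ZEB proteins bind E-box words such as CACCTG. The joint list includes background regions on purpose, so a listed region is not in itself a binding site. The optimal set, which the authors selected by the irreproducible discovery rate, is the same as the 357 regions of highest score in the joint list. Without a library of another factor, signal that any ChIP at promoters would give cannot be told apart from that of ZAG-1.

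The summit windows shown are those of the 6 highest divergent promoter regions of chromosomes II to V that were found in both replicates and whose window lay wholly between the starts and outside annotated exons. They are given because they are among the strongest signals of the group. Each is 101 bases of the plus strand of ce11, the WBcel235 assembly, centred on the summit. They lie in the intergenic gaps at chrIV:11082951-11083051 (klc-1/let-70), chrIV:654876-654976 (K11H12.8/rpl-15), chrIV:4750042-4750142 (Y17G9B.5/rpl-20), chrIII:1619081-1619181 (hsp-60/Y22D7AL.10), chrII:8185165-8185265 (cct-1/mig-5) and chrIII:13643679-13643779 (set-16/drr-2). In each name the plus-strand gene comes before the minus-strand gene. Capitals mark 4 words sought on either strand, which are GAGAGA, the word CGTCTC, the word GACGCA and the E-box word named above.
klc-1/let-70: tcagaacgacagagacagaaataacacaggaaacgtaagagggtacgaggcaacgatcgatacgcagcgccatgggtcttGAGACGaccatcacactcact
K11H12.8/rpl-15: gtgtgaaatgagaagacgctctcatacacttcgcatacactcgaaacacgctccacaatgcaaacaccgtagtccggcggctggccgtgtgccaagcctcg
Y17G9B.5/rpl-20: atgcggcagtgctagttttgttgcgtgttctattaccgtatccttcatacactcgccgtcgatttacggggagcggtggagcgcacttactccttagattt
hsp-60/Y22D7AL.10: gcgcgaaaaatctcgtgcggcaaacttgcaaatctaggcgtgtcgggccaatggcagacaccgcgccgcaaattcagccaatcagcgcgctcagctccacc
cct-1/mig-5: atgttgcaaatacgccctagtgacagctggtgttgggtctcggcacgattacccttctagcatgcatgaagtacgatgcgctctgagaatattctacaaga
set-16/drr-2: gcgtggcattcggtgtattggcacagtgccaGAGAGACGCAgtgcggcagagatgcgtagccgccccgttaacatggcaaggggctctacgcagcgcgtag

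Of these windows, set-16/drr-2 alone holds GAGAGA and GACGCA, joined in a run that also reads GAGACG, the other strand of CGTCTC. The klc-1/let-70 window holds the same word once. The other 4 hold none of the words searched, and none of the 6 holds CACCTG. Their GC content ran from 47.5% at cct-1/mig-5 to 62.4% at set-16/drr-2.

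The strongest divergent promoter region lay between klc-1, which encodes a kinesin light chain, and let-70, which encodes a ubiquitin-conjugating enzyme. Its signal score, the authors' own measure of a region against the control within 1 list, was 107 in the joint list, 65.6 in the list of replicate 1 and 55.2 in that of replicate 2. It ranked 28 among all 10005 joint regions, 16 in replicate 1 and 45 in replicate 2. Its summit was 734 bp upstream of klc-1 and 748 bp upstream of let-70, near the middle of a gap of 1482 bp. Scores are not scaled between lists, so a score is set only against others of its own list.

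Ribosomal protein genes recurred among the pairs of highest score. The region between K11H12.8, annotated in RefSeq as a growth hormone-inducible transmembrane protein, and rpl-15 scored 94.8, with 20.7 in replicate 1 and 71.6 in replicate 2. The region between Y17G9B.5, annotated as the mitochondrial protein ECSIT, and rpl-20 scored 94.7, with 40.8 in replicate 1 and 52.1 in replicate 2. The proteins RPL-15 and RPL-20 belong to the large ribosomal subunit. The region between ekl-4, the homologue of DMAP1, and rps-20 scored 69.4, with 28.5 in replicate 1 and 48.1 in replicate 2. The region between rps-1 and ifet-1, which encodes a repressor of translation, scored 66.0, with 35.7 in replicate 1 and 29.9 in replicate 2. The region between rps-12 and ska-3, a spindle and kinetochore gene, scored 57.9, with 23.6 in replicate 1 and 33.2 in replicate 2. All of these 5 were found in both replicates and were in the optimal set.

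Genes of protein folding made up a further part of the list's head. The region between hsp-60, the mitochondrial chaperonin, and Y22D7AL.10, annotated as the 10 kDa mitochondrial heat shock protein that acts as its co-chaperonin, scored 88.2, with 30.5 in replicate 1 and 58.6 in replicate 2. Its summit was 611 bp upstream of hsp-60 and 202 bp upstream of Y22D7AL.10. The region between pfd-1, a prefoldin subunit, and F01G4.6, annotated as the mitochondrial phosphate carrier, scored 86.9, with 31.8 in replicate 1 and 52.9 in replicate 2. The region between cct-1, a subunit of the cytosolic chaperonin, and mig-5, a Dishevelled homologue of Wnt signalling, scored 74.9, with 25.5 in replicate 1 and 50.2 in replicate 2. The last was the highest divergent promoter region of chromosome II, and its summit was 228 bp upstream of cct-1 and 192 bp upstream of mig-5. On chromosome V the highest was between hsp-90, the cytosolic chaperone, and C47E8.4, a FAM50 homologue, at 55.5, with 13.6 in replicate 1 and 41.4 in replicate 2.

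The other pairs among the 15 highest held genes of varied roles. The region between tasp-1, a TASPase homologue, and K01G5.10, annotated as a haloacid dehalogenase-like hydrolase, scored 101 and was the highest of chromosome III. It had 37.96 in replicate 1 and 62.9 in replicate 2, with its summit 37 bp upstream of tasp-1 and 748 bp upstream of K01G5.10. The region between tag-340, which encodes a START domain protein, and nhl-2, a TRIM-NHL protein, scored 85.1, with 26.5 in replicate 1 and 60.0 in replicate 2. The region between set-16, a histone H3 lysine methyltransferase of the MLL type, and drr-2, an eIF4H-like gene, scored 74.6, with 28.5 in replicate 1 and 43.6 in replicate 2. The remaining pairs were F54C9.14/iff-2 (66.1), in which iff-2 encodes eIF5A, ndua-8/rbc-2 (60.0), a complex I subunit gene and a rabconnectin gene, and vps-32.1/icd-1 (59.1), an ESCRT-III gene and a BTF3 homologue. All 15 regions were found in both replicates, at ranks of 16 to 300 in replicate 1 and 27 to 177 in replicate 2. The 15 were picked by score in the joint list, which draws on both libraries. High ranks in each replicate follow in part from that choice. The summits of the 15 regions all lay upstream of both starts, 11 of them in the central of 3 equal parts of the gap.

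Scores at divergent promoters ran from 12.2 to 107, with a median of 16.6 and quartiles of 13.9 and 24.6. Regions at promoters read in one direction (n = 2206) had a median of 14.97 and a highest score of 182, and the other autosomal regions (n = 5424) a median of 14.5 and a highest score of 120.0. The 3 ranges overlapped, and the classes differed mainly in how many regions were high. Among the 1000 highest regions of the joint list were 126 divergent promoter regions (29.8% of them), 284 one-direction promoter regions (12.9%) and 339 other autosomal regions (6.25%). These and the following differences between classes are described and were not tested, since regions of 1 pair of libraries are not replicates. Intervals on shares are exact (Clopper-Pearson, 95%) and cover the counting of regions only.

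Divergent promoter regions were found in both replicates more often than the rest. A region counted as found where a summit of the replicate list lay within 100 bp. Of the 423, 203 (47.99%, interval 43.1 to 52.9) were found in both, against 35.3% of all 10005 joint regions, 37.3% of one-direction promoter regions (interval 35.3 to 39.4) and 32.9% of other autosomal regions (31.7 to 34.2). Replicate 2 held 332 of the 423 (78.5%) and replicate 1 held 274 (64.8%), though its list is longer, at 30000 regions against 26202. The other classes also had more in replicate 2, with 74.7% against 56.8% of one-direction promoter regions and 70.9% against 55.1% of other autosomal regions. Of the 423, 129 (30.5%) were found in replicate 2 alone, 71 (16.8%) in replicate 1 alone and 20 (4.73%) in neither. For one-direction promoter regions these shares were 37.4%, 19.5% and 5.85%, and for other autosomal regions 37.98%, 22.1% and 6.95%. The optimal set held 56 of the 423 (13.2%, interval 10.2 to 16.8), against 3.57% of all joint regions, 4.62% of one-direction promoter regions (3.79 to 5.58) and 1.73% of other autosomal regions (1.40 to 2.12). Seen from the optimal set, 56 of its 252 autosomal regions (22.2%, interval 17.2 to 27.9) were at divergent promoters.

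**Figure D1:**
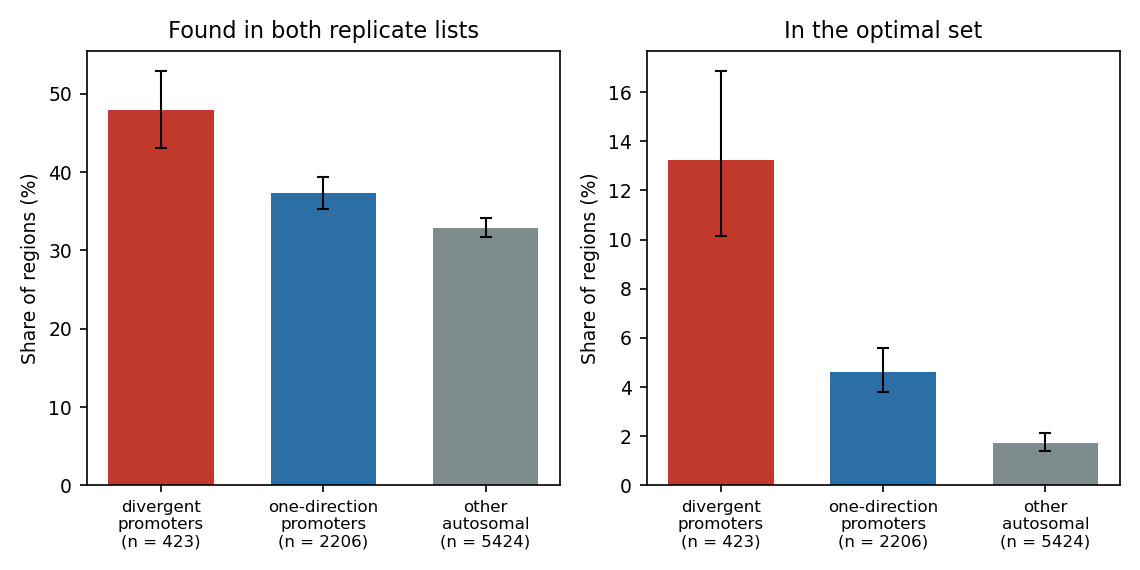
Share of joint-list regions (%) with a summit within 100 bp in both replicate lists (left) and in the optimal set (right), for divergent promoter, one-direction promoter and other autosomal regions; error bars are exact 95% binomial intervals over regions. The divergent class is highest in both panels, at 47.99% and 13.2%.

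At like score the classes were close in support from rank 1001 down, while above that divergent promoter regions had the highest share. Among the 500 highest joint regions 71 of 78 divergent promoter regions (91.0%) were found in both replicates, against 79.9% of 149 one-direction promoter regions and 87.9% of 132 others. From rank 501 to 1000 the shares were 77.1%, 71.9% and 69.1% in the same order, and from rank 1001 to 2500 they were 56.9%, 54.4% and 53.5%. From rank 2501 the divergent share was the lowest, at 35.6% against 36.7% and 37.0% up to rank 5000. Below rank 5000 the shares were 18.3% of divergent promoter regions, 21.4% of one-direction promoter regions and 20.5% of others. Divergent promoter regions made up 21.7% of the autosomal regions among the 500 highest and 3.47% of those below rank 5000. The higher overall share went together with the higher scores of the class, and among the 500 highest the divergent share was also higher at like score. The part of the scores in the overall share was not tested.

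Of the 56 divergent promoter regions in the optimal set, 52 were found in both replicates. The other 4 were scpr-1/gpap-1 (41.0), frg-1/ubq-2 (34.7) and rsp-1/rsp-2 (34.0), absent from replicate 1 within 100 bp, and Y111B2A.12/epc-1 (33.2), absent from replicate 2, named after their values were seen. Of the 367 outside the optimal set, 151 (41.1%, interval 36.1 to 46.4) were found in both. Across the 203 found in both, scores ran from 3.59 to 65.6 with a median of 9.02 in replicate 1 and from 5.84 to 71.6 with a median of 13.1 in replicate 2. Pearson's r of the log2 scores was 0.64 and Spearman's rho of the scores 0.548 (n = 203 regions, which share the 2 libraries and are not independent). The median distance from the joint summit to the replicate summit was 19 bp in replicate 1 and 10 bp in replicate 2. Only 36 of the 423 were among the 500 highest of both replicate lists.

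**Figure D2:**
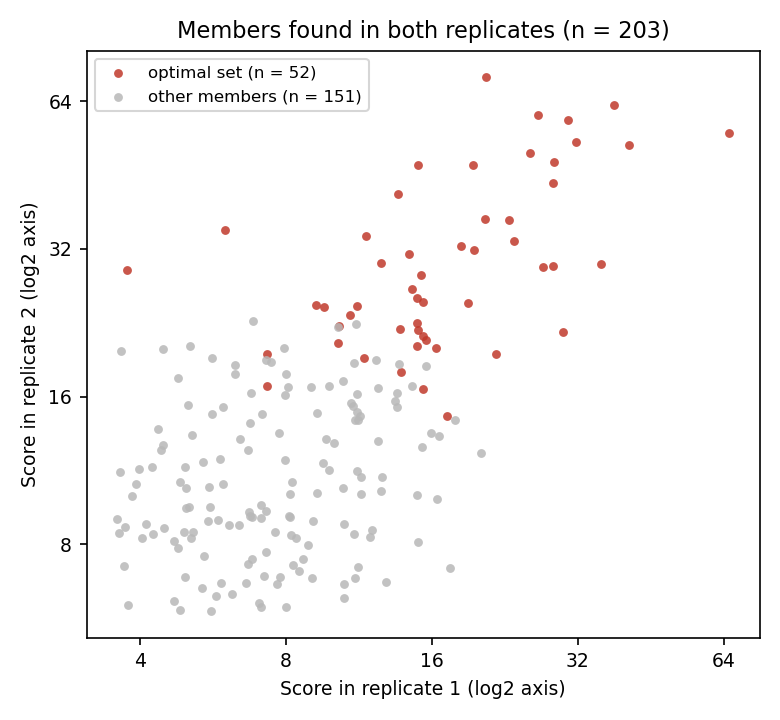
Score of each divergent promoter region found in both replicates (n = 203) in the list of replicate 1 (x) and of replicate 2 (y), on log2 axes, coloured by membership of the optimal set (52 red, 151 grey). The scores rose together (Pearson's r of log2 scores 0.64). The red points lie mostly toward the upper right, as the choice of the optimal set by score would give, but reach down to 3.76 in replicate 1.

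Divergent promoters held more regions for their length than one-direction promoters, most of all from 1 to 400 bp upstream of a start. The windows where opposed promoters overlap cover 1933024 bp, or 2.34% of autosomal length, and held 219 regions per Mb, against 117 per Mb in one-direction promoters and 87.7 per Mb elsewhere on autosomes. For the optimal set the densities were 29.0, 5.42 and 1.52 regions per Mb in the same order. From 1 to 200 bp upstream of the nearest start, divergent promoters held 310.2 joint regions per Mb and one-direction promoters 145, and from 201 to 400 bp they held 259 and 149.8. The densities were closer to each other inside the transcripts, up to 100 bp from the start (122 and 103 per Mb), from 401 to 600 bp (123 and 105) and from 601 to 1000 bp (106 and 96.0). Optimal regions differed by a larger ratio in each bin, with 7.95 and 3.20 per Mb inside the transcripts, 44.7 and 9.55 per Mb at 1 to 200 bp and 11.2 and 2.87 per Mb at 601 to 1000 bp, the divergent value of the last resting on 2 regions. A divergent promoter lies within reach of more starts by construction, and the part of this in the densities was not tested.

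**Figure D3:**
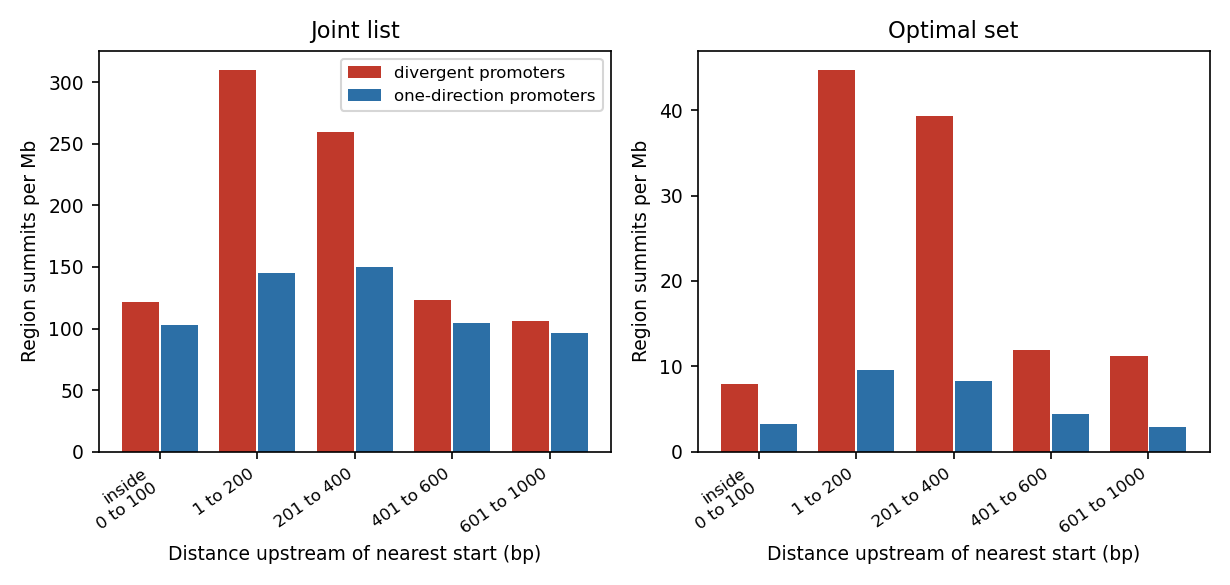
Summits per Mb of sequence, by distance to the nearest protein-coding start, at divergent promoters (red) and one-direction promoters (blue), in the joint list (left) and the optimal set (right). In both panels the bars differ most from 1 to 400 bp upstream (310.2 against 145 per Mb at 1 to 200 bp in the joint list). In the joint list they differ least at 601 to 1000 bp (106 against 96.0), and in the optimal set inside the transcripts (7.95 against 3.20).

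Summits lay mostly between the starts. Of the 423, 376 (88.9%, interval 85.5 to 91.7) were upstream of both starts, 47 were inside the transcript of 1 gene, 23 on the plus strand and 24 on the minus strand, and 0 were inside both. The median distance was 152 bp to the nearer start (quartiles 79 and 277.5) and 426 bp to the farther (272 and 646). The plus-strand start was the nearer in 228 regions (53.9%), the minus-strand start in 194, and in 1, a region between dnj-28 and supr-1, both were 287 bp away. Of the 376 in the gap, 171 (45.5%, interval 40.4 to 50.7) lay in the central of its 3 equal parts. The rule itself keeps summits of long gaps from the ends, and in gaps under 1000 bp the share was 126 of 296 (42.6%, 36.9 to 48.4). Annotated exons held 85 of the 423 summits (20.1%), so some summits upstream of both nearest starts still lay in an exon.

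Regions of the optimal set lay closer to the farther start than the rest of the group, and about as far from the nearer. Both starts were within 300 bp of the summit in 26 of 56 optimal regions (46.4%), against 100 of 367 others (27.2%). The farther start was at a median of 315.5 bp in the optimal set and 439 bp outside it, while the nearer start was at 159 and 151 bp. The distances to the opposed starts differed by at most 50 bp in 15 optimal regions (26.8%) and in 49 others (13.4%). The nearer start was that of the minus-strand gene in 34 of 56 optimal regions and in 160 of 367 others. Whether these splits exceed chance was not tested.

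**Figure D4:**
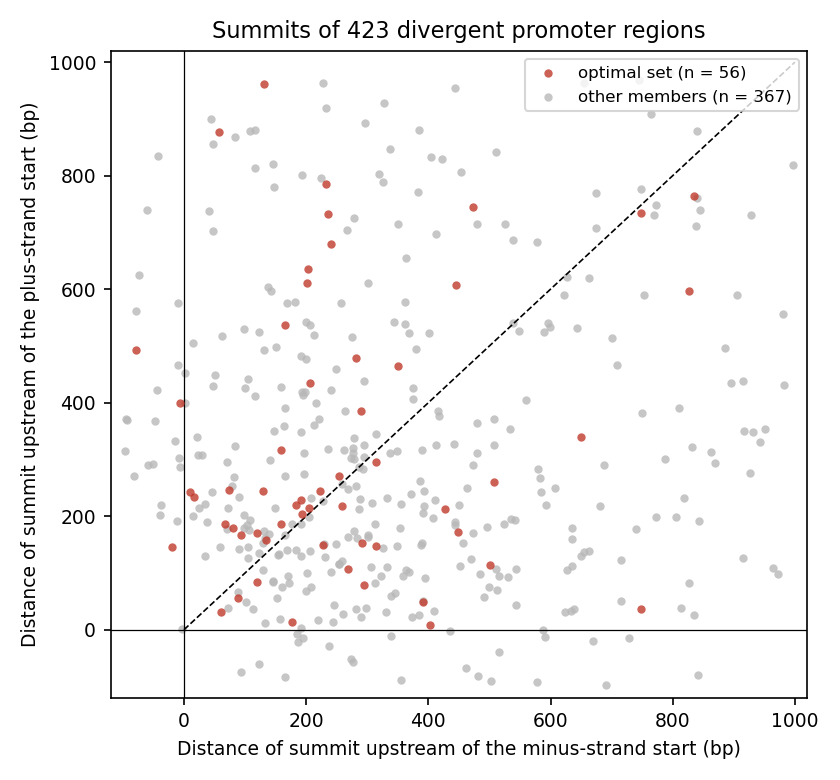
Distance of each of the 423 summits upstream of the minus-strand start (x, bp) and of the plus-strand start (y, bp); negative values are inside the transcript, the dashed line marks equal distance, and the 56 regions of the optimal set are red. Most points (376) lie upstream of both starts, and 15 of the red points lie within 50 bp of equal distance.

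Regions in shorter gaps were found in both replicates more often than regions in longer ones. In gaps under 300 bp 44 of 74 regions (59.5%) were found in both, from 300 to 599 bp 53.5% of 142, from 600 to 999 bp 39.4% of 127 and from 1000 bp 41.3% of 80. The optimal set held 16.2%, 14.1%, 13.4% and 8.75% of the same bins. Median scores were 16.7, 18.3, 16.4 and 15.5. Of the 3003 autosomal divergent gene pairs that the same windows define, 439 held a region (14.6%, interval 13.4 to 15.9) and 59 an optimal region (1.96%). By gap the share of pairs with a region was 16.04%, 22.4%, 18.7% and 7.47%, highest at 300 to 599 bp. By the rule, the windows of a pair share less sequence in short gaps and in the longest ones. The part of this shared length in the shares was not tested.

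Taking the nearest start on each strand, the 423 regions fell on 408 pairs of 814 genes. Of these pairs 393 held 1 region, 15 held 2 and 0 held more. Among the 15 was the pfd-1/F01G4.6 pair, whose regions scored 86.9 and 13.8, and dnj-28/supr-1, whose regions scored 23.4 and 16.2. In 31 regions the windows held 3 genes, and in all others they held 2. The chromosomes carried similar shares, from 4.49% of the joint regions of chromosome V to 6.48% of those of chromosome III. Chromosome V held 5 of its 76 in the optimal set and chromosome III 17 of 97.

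Genes were grouped by symbol into 22 classes, and each class was counted among the 5473 genes that lie in an autosomal divergent pair. Of those genes, 814 (14.9%) were in the pair of a region. The pairs hold a gene of any class in 151 regions. Class counts are descriptions beside the 14.9% and were not tested, and the classes were chosen with earlier results known.

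Cytosolic ribosomal protein genes had the highest share of any class, with 32 of 53 (60.4%) in the pair of a region. Their 29 regions had a median score of 28.7, against 16.6 for all 423, with 11 in the optimal set and 20 found in both replicates. The ribosomal protein gene was the nearer of the pair in 10 of the 26 regions with only 1 such gene. In 3 regions both genes encoded ribosomal proteins, rpl-24.1/rps-10 (24.9), rps-30/rpl-39 (24.3) and rpl-36/rps-14 (15.03). The last was not found in replicate 1. Mitochondrial ribosomal protein genes had 7 of 30 (23.3%), led by mrpl-12/Y39A1A.22 (32.6) and Y57G11C.3/mrps-7 (28.7), none of them in the optimal set.

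Translation factor genes had 9 of 24 (37.5%), with a median score of 24.3, and were the nearer gene in 7 of the 9. After F54C9.14/iff-2 the highest was prp-40/clu-1 (38.8), in which prp-40 encodes a splicing factor. Genes of tRNA synthetases had 4 of 15, led by uncp-18/ears-2 (43.3) and Y41E3.7/qars-1 (17.2), the latter found in replicate 1 alone. Genes of the respiratory chain and ATP synthase had 11 of 28 (39.3%), a class in which the symbol rule also placed cox-10 and lpd-3, which are not subunits. The rule missed complex I genes with ndu symbols, such as ndua-8 of the ndua-8/rbc-2 region, and with these, added after the values were seen, the count was 15 of 45 (33.3%). The highest by the rule were atp-1/mcrs-1 (46.1) and F27C1.2/atp-3 (33.3), which hold ATP synthase subunit genes, and their summits were 13 bp from the atp-1 start and 16 bp from the atp-3 start. Both of these regions were optimal and found in each replicate, while that of a further ATP synthase gene, atp-2/C34E10.10 (13.5), was neither optimal nor found in replicate 1.

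Chaperone genes had 8 of 38 (21.1%). Of their 9 regions 4 were optimal and 8 were found in both replicates, with a median score of 29.2. Proteasome genes had 7 of 24 (29.2%), led by F39H11.1/pbs-7 (27.3) and rpn-3/hsp-110 (20.9), in which a proteasome lid gene faces a chaperone gene, with 0 in the optimal set. Vesicle traffic genes had 16 of 58 (27.6%) in 17 regions, 5 of them optimal, led by vps-32.1/icd-1 and rps-18/sec-61.A (45.3). The summit of the rps-18/sec-61.A region was 78 bp inside sec-61.A, which encodes a subunit of the translocon.

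Classes of nuclear, cell cycle and mitochondrial import genes stood above the share of all genes by less than the ribosomal class, and histone genes below it. Splicing genes had 10 of 43 (23.3%), among them rsp-1/rsp-2 (34.0), a pair of SR protein genes. Genes of RNA polymerase and general transcription had 9 of 33 (27.3%), led by mdt-19/apb-1 (31.8) and aly-2/rpb-12 (20.2), the latter found in replicate 2 alone. Cell cycle and kinetochore genes had 11 of 44 (25%), led by knl-3/T10B5.3 (38.3) and acin-1/cdc-6 (28.8), with a pair of such genes at cyb-1/orc-5 (14.5). The acin-1/cdc-6 region was found in replicate 2 alone. The symbol rule also took in cdc-37 and cdk-5 here, and cdk-9 both here and under general transcription. The count is thus one of symbols and not of established roles. Mitochondrial import and carrier genes had 3 of 10, led by Y75B8A.23/tim-1 (32.9) and ant-1.1/T27E9.2 (23.3). The ant-1.1/T27E9.2 region was found in neither replicate. Histone genes had 7 of 65 (10.8%), led by htz-1/wapl-1 (40.3), in which htz-1 encodes the variant H2A.Z. The pairs of histone genes were his-68/his-67 (21.1), his-41/his-35 (14.8), found in replicate 1 alone, and his-39/his-6 (13.3). Histone genes have near-identical copies, and how reads that fit several copies were counted is not given in the sources used here.

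Large families of environment-facing genes were below the share of all genes. Chemoreceptor genes had 19 of 314 (6.05%) in the pair of a region, after symbols that the pattern took in error were left out, with a median score of 15.1 over 16 regions. Among them were srr-10/clic-1 (18.4), with 6.62 in replicate 1 and 6.65 in replicate 2, and F25E5.1/srh-89 (17.8), and both were found in each replicate. The pairs of receptor genes were str-102/str-88 and srt-7/srt-5, the latter found in replicate 2 alone. F-box, BTB and MATH genes had 6 of 120 (5%), led by hex-3/fbxb-85 (35.8) and tph-1/fbxa-224 (17.04). The hex-3/fbxb-85 region scored 29.0 in replicate 2 but 3.76 in replicate 1, near the lowest score there. C-type lectin genes had 4 of 83 (4.82%), led by uba-5/clec-53 (23.1) and clec-181/Y59H11AR.3 (14.3), the latter found in replicate 2 alone. Detoxification genes had 3 of 53 (5.66%), in cyp-33C7/cyp-33C6 (18.7) and T19H12.2/ugt-12 (14.2), the latter found in replicate 1 alone. Collagens and cuticle genes had 1 of 50 (2.00%), at Y49F6B.2/col-71 (20.2). Nuclear hormone receptor genes had 1 of 45 (2.22%), at F44E7.9/nhr-142 (31.5).

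Few divergent promoter regions lay at the neuronal and homeobox classes, which have few genes in divergent pairs, so their shares rest on small counts. The symbol lists do not take in every neuronal gene. Neuropeptide and insulin genes had 1 of 16 (6.25%), at exos-3/nlp-4 (16.8), and synaptic genes 1 of 7 (14.3%), at rps-29/snt-2 (14.1). Neither was found in both replicates. Homeobox genes had 2 of 11 (18.2%, beside 14.9% of all genes). Their regions were ceh-38/malt-1 (20.6), found in both replicates, and ceh-99/srh-70 (16.5), found in replicate 2 alone. The tph-1/fbxa-224 region, at 963 bp upstream of the gene for tryptophan hydroxylase of serotonin synthesis, was found in replicate 2 alone, with a score of 11.8 there.

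The sequence at the summits differed from its surroundings in some words and not in CACCTG. Words were sought on both strands in the 101 bp around the summit and around the points 500 bp to its left and right. The nearer start was at a median of 152 bp, so 1 of these points often lay past it. The part of this in the word shares was not tested. CACCTG lay in 8 of 423 summit windows (1.89%, interval 0.820 to 3.69), in 1.89% of left windows and 3.78% of right windows. One-direction promoter summits held it in 1.72%, other autosomal summits in 1.95% and the middles of 2470 divergent gaps without a region in 2.63%. GACGCA lay in 47 summit windows (11.1%, interval 8.28 to 14.5), against 3.31% on either side, 5.80% of one-direction promoter summits, 2.80% of other autosomal summits and 2.67% of gaps without a region. CGTCTC lay in 37 (8.75%, interval 6.23 to 11.9), against 2.84% left and 3.78% right, 6.71%, 3.798% and 3.16% in the same order. GAGAGA lay in 49 (11.6%, interval 8.69 to 15.02), against 6.38% left and 4.49% right, 9.61%, 8.54% and 6.11%. The words can overlap, as in the set-16/drr-2 window, and 95 summits (22.5%) held at least 1 of these last 3 words.

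GAGAGA was less frequent in the optimal regions of divergent promoters than in those elsewhere. It lay in 12 of 56 (21.4%, interval 11.6 to 34.4), against 34 of 102 one-direction promoter regions (33.3%, 24.3 to 43.4) and 49 of 94 other autosomal regions (52.1%, 41.6 to 62.5) of the optimal set. These intervals cover the counting of regions only, and no difference between the classes was tested. CGTCTC rose in the same order by less, at 23.2%, 24.5% and 30.9%, and GACGCA did not, at 28.6%, 28.4% and 20.2%. Divergent promoter regions with GAGAGA (n = 49) had a median score of 21.7, against 16.3 without it (n = 374). Relative to the nearer gene, the word read GAGAGA on its sense strand in 20 regions, on the other strand in 28 and on both in 1.

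Among all 2080 hexamers, counted with their reverse complement, the rise from flanks to summit was largest for AAAAAT (53.9% of summit windows against 44.1% of flanking windows). One-direction promoter summits held AAAAAT in 52.5%. Next was ACGCGC, in 9.46% against 0.946%, and in 3.08% of one-direction promoter summits. AGCGCG and GCGCAC, which overlap it in letters, were in 8.75% and 8.27% of summits, against 1.06% of flanks for each. The steepest fall was of CTGAAA, in 16.3% against 26.7%, whose other strand reads TTTCAG, the usual end of C. elegans introns. GACGCA, searched above, had rank 6 by the rise, so its summit share and its rank come from the same windows. This ranking was chosen after the data were seen.

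GC content was higher in windows with GAGAGA, at 45.3% in the 49 with it and 38.1% in the 374 without. It averaged 38.9% ± 10.4 (SD, n = 423 windows) at divergent promoter summits, 35.7% ± 9.87 at one-direction promoter summits (n = 2206) and 34.1% ± 9.36 at other autosomal summits (n = 5424). Windows 100 bp from divergent promoter summits averaged less, at 35.3% to the left and 34.3% to the right, but windows 500 bp away averaged 37.99% and 38.07%, close to the summit value, and the window 700 bp to the left 39.02%. It was 49.6% in the 56 optimal regions and 37.3% in the 367 others, against 34.8% at the middles of divergent gaps without a region. Optimal one-direction promoter regions had 48.3% and optimal regions elsewhere 48.1%, close to each other. By score, windows of the 500 highest joint regions averaged 48.3% at divergent promoters, 47.3% at one-direction promoters and 47.1% elsewhere, and below rank 5000 they averaged 33.7%, 33.7% and 33.3%, so GC content was higher at high scores in each class. The part of GC content in the word shares and in the scores was not tested.

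**Figure D5:**
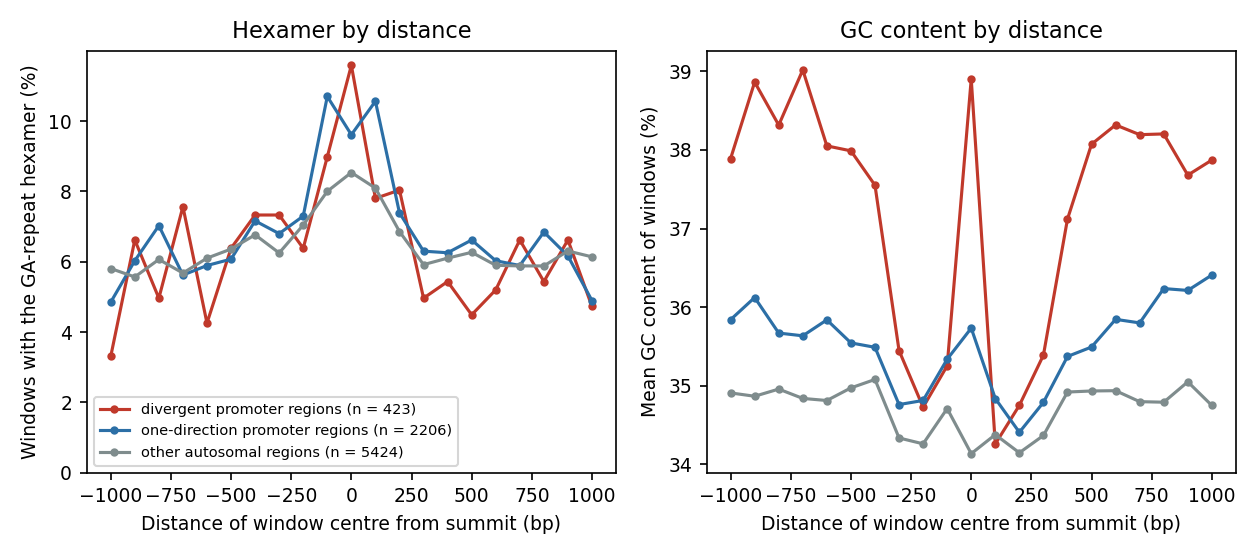
Share of 101 bp windows (%) that hold the GA-repeat hexamer on either strand (left) and mean GC content (%, right; axis does not start at 0) by distance of the window from the summit (bp), for divergent promoter (n = 423), one-direction promoter (n = 2206) and other autosomal (n = 5424) regions. GC content at divergent promoters is 38.9% at the summit, above the windows beside it at 35.3% and 34.3% and close to those 500 bp away, and the hexamer share is highest at the summit, at 11.6%.

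Some summits lay near genes of noncoding RNA. Within 500 bp lay a tRNA gene for 5 divergent promoter regions (1.18%) and 13 one-direction promoter regions (0.589%), and a snoRNA gene for 10 (2.36%) and 32 (1.45%). Genes annotated as ncRNA were near 61 divergent (14.4%) and 200 one-direction promoter regions (9.07%). Genes of piRNAs were near 5 (1.18%) and 82 (3.72%), and of snRNAs near 1 (0.236%) and 14 (0.635%), so the classes of RNA differed in direction. The snoRNA set had a median score of 23.1 at divergent promoters and 18.9 at one-direction promoters.

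At the edges of the rule, the region of R13D11.3/R13D11.10 (15.8) lay just inside, 997 bp upstream of R13D11.10, and that of T10E9.2/T10E9.8 (14.2) just outside, 1001 bp upstream of T10E9.8. On the downstream side drap-1/aagr-3 (16.3) was 97 bp inside drap-1 and counted, and pmlr-1/ric-19 (12.3) was 103 bp inside ric-19 and did not.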

How the data were processed

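ChIP-seq regions of 2 biological replicates were analysed. Each replicate list was made by the authors from 1 alignment and a control file, the joint list from both alignments, and the optimal set by the irreproducible discovery rate, per notes deposited beside them. Which aligner, caller and threshold they used is not given in the sources used here. Values are a score per region, which the authors deposited and which was used only to rank regions within a list. Read depth is unknown and control reads were not analysed here, so a score has no interval. Joint regions were mostly 384 bp wide, with the summit within 1 bp of the centre in 9994 of 10005.

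Starts and exons came from Ensembl release 115 gene models of WBcel235, which is ce11, with 19985 protein-coding genes and 29326 starts. Product names and sequence came from RefSeq. A region's pair is the nearest start on each strand. No test was run over regions. Named pairs were the 15 highest, the highest of each autosome, the 2 highest of each class, same-class pairs (up to 3 a class) and those at the window edges; 1 named pair is not reported here. The members and lists were chosen with earlier results of these data known. Software was Python 3.11.15, pandas 2.3.3, NumPy 2.4.6, SciPy 1.17.1 and matplotlib 3.10.9, and the scripts were tested on simulated data.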

Additional observations from a re-analysis of the deposited data

How the results depend on the processing

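No paired analysis was possible because both samples belong to 1 group. Of 64 alternatives 33 kept the value within its interval, or within 1.5 times for counts. Each replicate's 10005 highest regions alone gave 373 to 386 regions (4.60% to 4.83% of autosomal regions), 12.5% to 13.2% of pairs and 84.97% to 88.7% upstream of both starts. Of these regions 39.1% to 41.5% were found in both replicates. Each is in its own replicate list by construction, so this is the share found in the other replicate and is not like the 47.99%. The optimal set gave 56 regions (22.2%), 1.96% of pairs, 92.9% found in both, 94.6% upstream of both starts, 54.7% in the central part of the gap, GAGAGA in 21.4% and GC content of 49.6%. The 5002 highest regions of the joint list gave a share of 7.09%, 63.0% found in both, GAGAGA in 15.3% and GC content of 41.5%. A 500 bp upstream window gave 251 regions (3.12%), 54.6% found in both, a median score of 17.9, a nearer start at 120.0 bp and 52.3% in the central part of the gap. The share found in both moved to 33.3% for summits within 50 bp, 60.5% for summits within 200 bp, 66.7% for regions that overlap by 1 bp and 28.8% against the 10005 highest regions of each replicate. One-direction promoter regions gave 22.8%, 52.4%, 60.7% and 13.9%, so the order of these classes held under each rule. GAGAGA was in 21.3% of windows of 100 bp to each side, with GC content of 37.1%, and in 5.91% of windows of 25 bp. The restriction to gaps under 1000 bp was chosen after seeing the data. By construction, fewer regions or a shorter promoter window lower the counts, and wider matching or word windows raise the shares found. Why the other values moved was not tested. The number of libraries and the unknown depth limit all scores.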
